A study of Homo sapiens with 18 samples.

Results

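TGF-β1 was added to acini of JNK-knockout mammary epithelial cells in which a HER2 chimera was kept active, and the result was set against the same cells with the active chimera alone. The comparison rests on 6 of the 18 RNA-seq libraries of the series, chosen by their column names in the deposited count table: JNKKO dimerizer with TGF-β1 (3 libraries, called the TGF-β1 libraries below) and JNKKO dimerizer (3 libraries, called the dimerizer libraries). Both groups are MCF-10A.B2, a non-tumour human mammary epithelial line that carries a HER2 kinase chimera which the bivalent drug B/B homodimerizer brings together, and both are labelled as a JNK knockout, so the drug and the knockout are shared by all 6 libraries. They grew on growth factor-reduced matrigel for 21 days, and for the last 14 of these the medium held, in place of EGF, either B/B homodimerizer with TGF-β1 or B/B homodimerizer alone. The sources used here do not name which JNK genes were edited, or say whether the knockout is 1 clone. Whether the 3 libraries of each group are separate cultures is also not in the labels, so each p-value measures only the spread between these libraries, which may be technical.

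TGF-β1 binds the receptor kinases TGFBR2 and TGFBR1, which phosphorylate SMAD2 and SMAD3; these join SMAD4 and act on genes together with other factors, among them AP-1, the dimer of JUN and FOS proteins whose JUN subunits are substrates of the JNK kinases. In mammary epithelium the pathway is known for slowing growth, for matrix production and for the epithelial-to-mesenchymal transition (EMT), in which cells lose E-cadherin junctions and gain N-cadherin and fibronectin. The comparison asks which genes move with the cytokine in the cells labelled as a JNK knockout, and the same step in wild-type (WT) cells is used below only where the difference between the genotypes was tested.

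The TGF-β1 libraries held 28072330 to 30211565 expected counts and the dimerizer libraries 24243537 to 32563064. The first principal component of the 6 libraries, with 77.5% of their variance, parted the groups. Libraries of a group were close, but a chi-square per gene of 6.54 and 6.38 set dimerizer replicate 2 apart from replicates 1 and 3, which were at 2.28 from each other. Transcripts made in mitochondria took 5.24%, 5.56% and 5.33% of all counts in the TGF-β1 libraries, against 9.01%, 8.96% and 8.73% in the dimerizer libraries, and 8.61% was the lowest share among the other libraries of the series. The part of that share in the results below was not tested beyond a fit with these genes left out. All 8 mammary epithelial markers examined were counted in every one of the 6 libraries, with KRT5 at 3312, 3317 and 3124 CPM in the TGF-β1 libraries, against 7445, 6539 and 7438 CPM in the dimerizer libraries. Markers of other cell types were mixed. CDH5, which defines endothelium, was at 0 in all 6 libraries, and the T-cell gene CD3E had a count in 1 of them. The fibroblast receptor gene PDGFRA stayed at or below 0.0700 CPM. DCN, PDGFRB, PECAM1, PTPRC and CD14 were counted in all 6 libraries, while LUM and VWF were not. The fibroblast marker DCN averaged 66.4 CPM with TGF-β1 and 17.7 CPM with dimerizer. The endothelial marker PECAM1 averaged 1.904 and 7.601 CPM, and the leukocyte marker CD14 0.985 and 2.395 CPM. Whether cells of other types were present was not tested.

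The JNK genes came first as a check of the label. MAPK9 (JNK2) was at 51.0, 53.9 and 52.2 CPM in the TGF-β1 libraries, against 44.5, 42.7 and 44.3 CPM in the dimerizer libraries, and rose by 0.26 ± 0.05 on the log2 scale. MAPK8 (JNK1) was at 26.7, 25.5 and 27.4 CPM, against 29.9, 29.3 and 28.9 CPM, a difference of -0.15 ± 0.06 that passed the test on counts but was 0.10 on the log2(TPM + 1) scale, and that did not pass on leaving out any 1 of dimerizer replicate 1, dimerizer replicate 2 and TGF-β1 replicate 2 (then -0.15 to -0.12). MAPK10 (JNK3), at 3.64, 4.02 and 3.81 CPM with TGF-β1 and 7.47, 7.34 and 6.15 CPM with dimerizer, fell by 0.86 ± 0.11. All 3 transcripts were thus counted in every library; an edited gene can still be transcribed, so these levels do not test the knockout. Counts given to ERBB2 and NGFR may include the chimera, which joins parts of both receptors: ERBB2 averaged 51.1 ± 1.32 CPM with TGF-β1 and 55.7 ± 2.198 CPM with dimerizer, and NGFR, which rose by 0.35 ± 0.09, averaged 325 ± 29.6 CPM and 256 ± 10.5 CPM (SD, n = 3 each; largest adjusted p of the 5 genes, 0.0272, by the edgeR quasi-likelihood test with Benjamini-Hochberg adjustment). The ERBB2 difference, -0.12 ± 0.05, was 0.10 on log2(TPM + 1) and did not pass on leaving out any 1 of dimerizer replicate 1, TGF-β1 replicate 1 and TGF-β1 replicate 2 (then -0.11 to -0.10).

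Of 16911 genes tested, 10271 (60.7%) passed at an adjusted p under 0.05, 5154 of them (30.5%) higher with TGF-β1 and 5117 (30.3%) lower. At least a 2-fold change was seen in 2413 genes (14.3%), 1278 up and 1135 down. Large changes leaned upward: 241 genes rose and 91 fell at least 8-fold, and 74 rose and 11 fell at least 32-fold. Levels are given throughout as counts per 1000000 (CPM) after TMM scaling, and differences as log2 of the TGF-β1 libraries over the dimerizer libraries ± the standard error of the edgeR fit. Because so many genes passed, a list of genes is read here against 30.5% higher and 30.3% lower. On the deposited TPM the split was different, limma on log2(TPM + 1) calling 7618 genes higher and 2418 lower. There all genes had a median of 0.21, so changes smaller than about that on the log2 scale depend on the scaling, and counts in a list that moved by over 1.5 times on log2(TPM + 1) are given on both scales. In bulk RNA, fewer cells of a kind and less RNA per cell cannot be told apart.

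**Figure D1:**
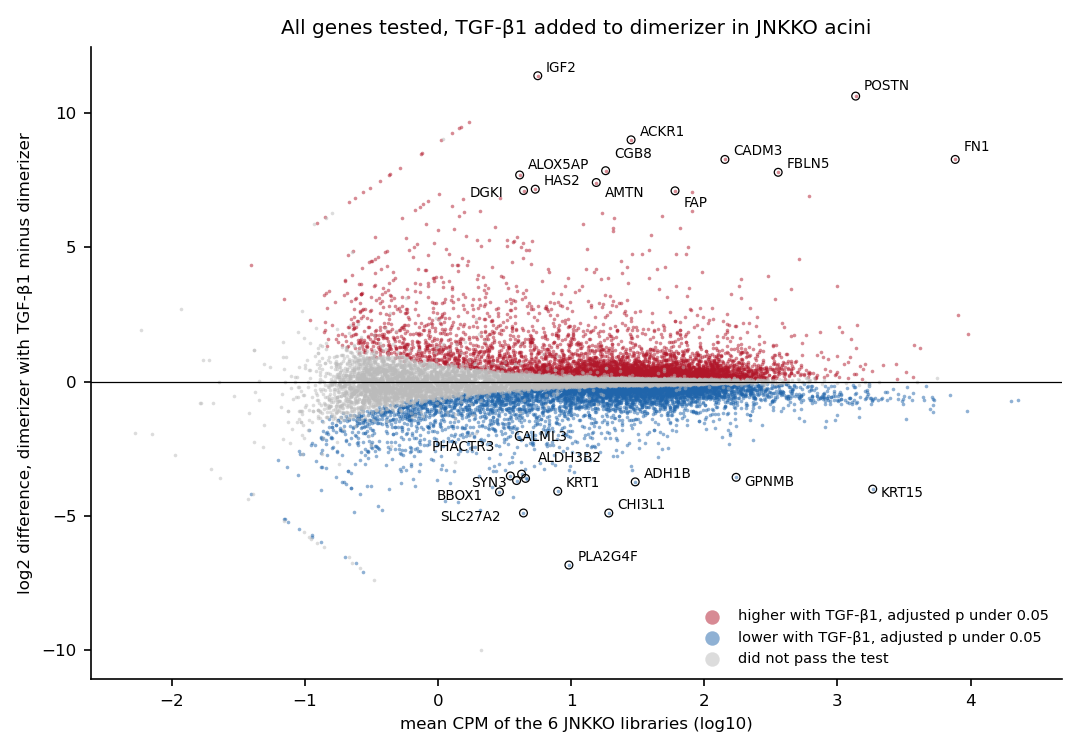
Each point is a gene, with its mean CPM over the 6 JNKKO libraries on the x axis (log10) and the log2 difference between dimerizer with TGF-β1 and dimerizer on the y axis; red and blue points passed the test and grey points did not. Circled genes are the 12 largest rises and 12 largest falls that met the naming rule, from IGF2 and POSTN at the top to PLA2G4F at the bottom, and the cloud reaches farther up than down.

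The pathway itself responded at its own members. Of 11 tested ligands, receptors and latency proteins, 8 rose and 2 fell. The latent TGF-β binding proteins, which hold the inactive cytokine in the matrix, changed unequally: LTBP2 was at 428, 389 and 439 CPM in the TGF-β1 libraries, against 77.6, 72.2 and 84.8 CPM in the dimerizer libraries, and rose by 2.42 ± 0.06. LTBP3 rose by 1.84 ± 0.10 and LTBP1 by 1.44 ± 0.10, while LTBP4 was lower, at -0.38 ± 0.05. THBS1, the thrombospondin known for activating latent TGF-β, rose by 1.70 ± 0.13. TGFBR1, the type I receptor, stood at 124, 138 and 140.4 CPM, against 50.1, 52.9 and 46.8 CPM, a rise of 1.43 ± 0.05, and the type II receptor TGFBR2 was 0.16 ± 0.04 higher, below the shift of all genes on TPM. TGFBR3 (betaglycan), the co-receptor that presents ligand, went the other way, with 6.83, 7.45 and 5.79 CPM against 43.1, 41.9 and 40.2 CPM and a fall of 2.64 ± 0.13; in WT cells it was at -0.89 ± 0.09, and the genotypes differed by -1.74 ± 0.16. TGFB1, the cell's own copy of the ligand gene, rose by 0.48 ± 0.08, and TGFB3 was at 0.01 ± 0.24 without passing the test. In edgeR the called genes had adjusted p-values of 0.00021 or less.

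Of 17 SMAD transducers and feedback genes, 14 rose and 1 fell (14 and 0 of 16 on log2(TPM + 1)), with a median of 1.07 against -0.01 over all genes. PMEPA1, an inhibitor that removes receptor-activated SMADs from the receptor, was at 998, 960.1 and 983 CPM in the TGF-β1 libraries, against 41.0, 42.3 and 41.1 CPM in the dimerizer libraries, and rose by 4.56 ± 0.06. LDLRAD4, a relative of PMEPA1 with the same known role, had 243 counts against 3 in all, which is 82.6 times as many (95% counting interval 27.9 to 403). SMAD7, which blocks the type I receptor, rose by 1.76 ± 0.07, and the co-repressor genes SKIL and SKI rose by 2.12 ± 0.06 and 1.07 ± 0.04. NEDD9, a docking protein of focal adhesions, rose by 4.28 ± 0.10. The transducers moved little: SMAD4 was at 0.14 ± 0.04, SMAD3 at -0.19 ± 0.06 (-0.08 and not passing on log2(TPM + 1)) and SMAD2 at 0.08 ± 0.05, and SMAD2 did not pass the test. Called genes had edgeR adjusted p-values up to 0.00469.

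**Figure D2:**
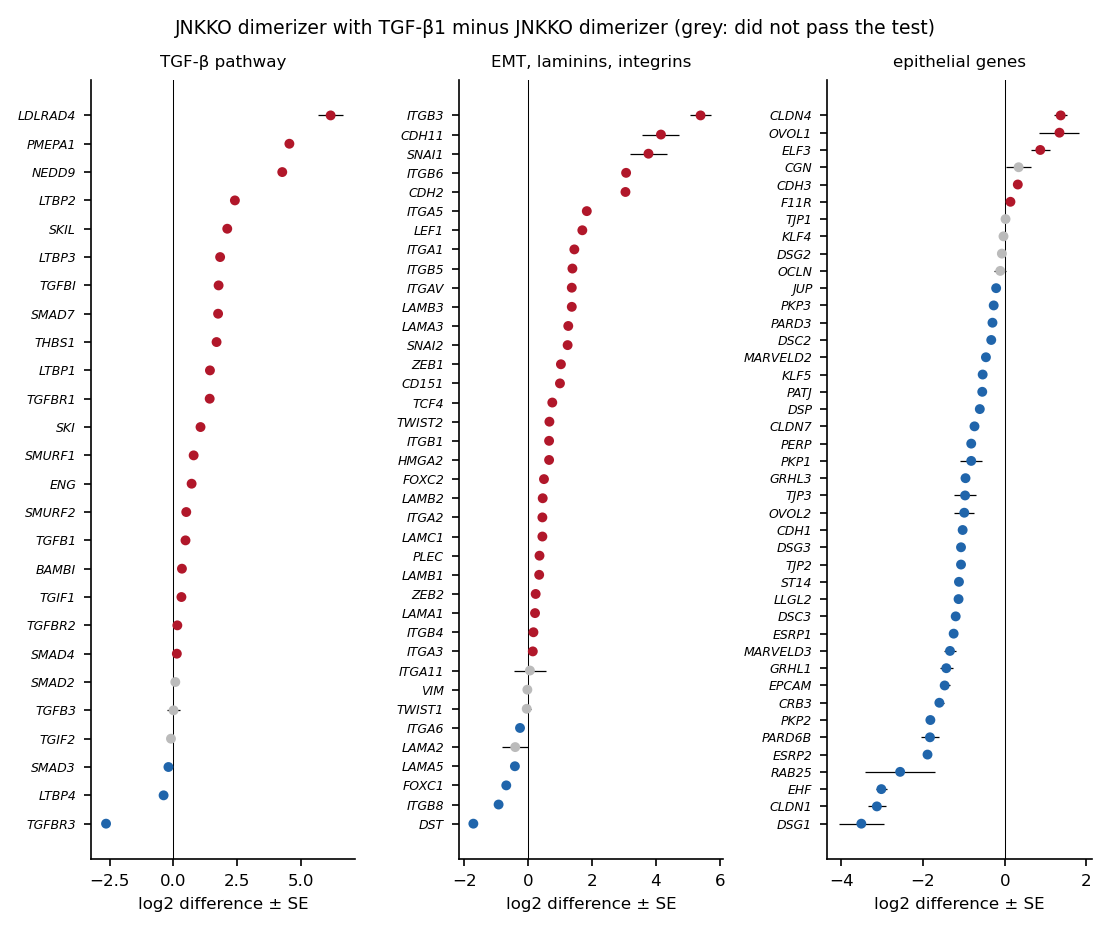
Log2 differences (JNKKO dimerizer with TGF-β1 minus JNKKO dimerizer) are plotted with their standard errors for members of 6 gene lists in 3 panels; red points rose, blue points fell and grey points did not pass the test. Most of the TGF-β pathway, laminin and integrin genes lie right of 0, with PMEPA1 at 4.56, and most of the epithelial genes lie left of it, with CLDN1 at -3.13.

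In the activin and BMP branch, 12 of 26 members rose and 5 fell (15 and 1 of 23 on log2(TPM + 1)). The ID genes, targets of BMP-type SMADs that hold back differentiation factors, rose together: ID1 was at 229, 240.4 and 232 CPM with TGF-β1, against 100.8, 109 and 95.4 CPM with dimerizer, a rise of 1.20 ± 0.10, and ID3 rose by 1.49 ± 0.05. SMAD6, the inhibitor of BMP signalling, rose by 2.71 ± 0.23, and the ligand gene BMP2 by 1.64 ± 0.07. BMP1, which is not a ligand but a protease that trims procollagen, rose by 2.11 ± 0.05. FSTL3, which binds and blocks activin, rose by 0.98 ± 0.07. INHBA, the activin A subunit, was at 0.43 ± 0.14, a call lost on leaving out any 1 of dimerizer replicate 1 and TGF-β1 replicate 2 (then 0.39 to 0.40). GDF15 fell by 1.13 ± 0.16 (largest adjusted p of these genes, 0.016, edgeR quasi-likelihood test with Benjamini-Hochberg adjustment).

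Of 14 tested EMT factors, cadherins and mesenchymal genes 11 rose and 1, FOXC1, a forkhead factor, fell, by 0.68 ± 0.08. CDH2, the N-cadherin gene, was at 45.1, 46.7 and 49.2 CPM in the TGF-β1 libraries, against 5.47, 6.04 and 5.50 CPM in the dimerizer libraries, with no overlap and a rise of 3.05 ± 0.09. The zinc-finger repressor SNAI2 (Slug) stood at 263, 269 and 271 CPM, against 109, 118 and 111 CPM, a rise of 1.24 ± 0.05. SNAI1 (Snail), a gene of low level here, averaged 0.854 ± 0.308 CPM against 0.0605 ± 0.0268 CPM. ZEB1, a repressor of E-cadherin, had 21.9, 21.5 and 23.5 CPM against 11.3, 10.8 and 10.6 CPM and rose by 1.03 ± 0.08. In WT cells ZEB1 was at -0.22 ± 0.09, so that the genotypes differed by 1.25 ± 0.12. LEF1, a partner of β-catenin, rose by 1.70 ± 0.10 and HMGA2, a chromatin protein downstream of SMADs, by 0.66 ± 0.07. VIM (vimentin) was already abundant, at 2023, 2064 and 1996 CPM with TGF-β1 and 2089.9, 1889 and 2187 CPM with dimerizer, and at -0.02 ± 0.05 did not pass the test on counts, though it was 0.24 and passed on log2(TPM + 1), close to the 0.21 of all genes. TWIST1 was at -0.04 ± 0.12 without passing. Adjusted p-values of the called genes reached 1.76e-06 at most (edgeR with Benjamini-Hochberg adjustment).

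Epithelial genes mostly fell. Of 31 regulators and junction genes 5 rose and 22 fell, and of 11 desmosome genes none rose and 10 fell on counts (1 rose and 7 fell of 10 on log2(TPM + 1)). CDH1, the E-cadherin gene, was at 39.5, 39.2 and 40.9 CPM in the TGF-β1 libraries, against 79.4, 85.0 and 80.0 CPM in the dimerizer libraries. Its fall of 1.03 ± 0.07, about 2-fold, was larger than the -0.37 ± 0.06 of WT cells by a tested -0.66 ± 0.09. The splicing factors ESRP1 and ESRP2, which keep epithelial exon choice, fell by 1.25 ± 0.05 and 1.89 ± 0.07, ESRP2 to 16.2, 15.5 and 17.0 CPM, against 57.0, 64.8 and 58.9 CPM. CLDN1, a tight junction claudin, had 5.18, 5.87 and 6.26 CPM against 48.0, 55.4 and 48.0 CPM and fell by 3.13 ± 0.22. EHF, an epithelial ETS factor, fell by 3.02 ± 0.13, the polarity genes CRB3 and PARD6B by 1.60 ± 0.11 and 1.83 ± 0.21, and EPCAM by 1.47 ± 0.12. Of desmosome genes, DSG3, the cadherin of basal cells, was at 214, 206 and 215 CPM, against 442, 456 and 431 CPM, and fell by 1.07 ± 0.06, and the plaque protein PKP2 fell by 1.82 ± 0.04. CLDN4 rose, by 1.37 ± 0.16, as did P-cadherin (CDH3), by 0.32 ± 0.04 from an already high level. TJP1 (ZO-1) was at 0.02 ± 0.05 and KLF4 at -0.03 ± 0.07; neither passed the test (KLF4 was 0.21 and passed on log2(TPM + 1)). In edgeR the called genes had adjusted p-values of 3.41e-08 or less.

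**Figure D3:**
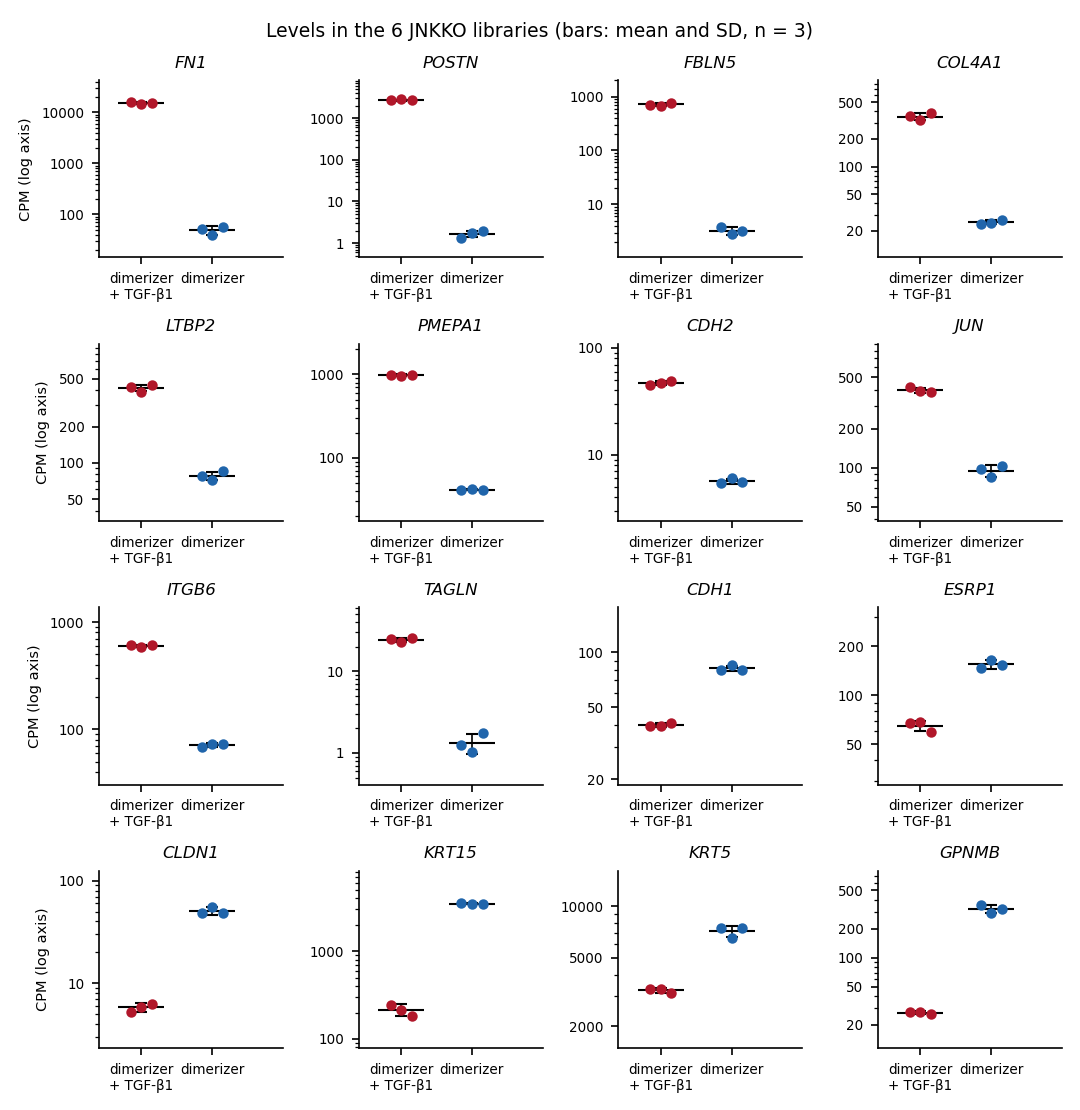
CPM of 16 genes on log axes in the 3 JNKKO dimerizer with TGF-β1 libraries (red, left) and the 3 JNKKO dimerizer libraries (blue, right), with the mean and SD (n = 3). None of these picked genes overlaps between the groups, beside 64.8% of all genes tested that do not overlap. FN1, POSTN and the other 8 induced genes lie higher with TGF-β1, and CDH1, ESRP1, CLDN1, KRT15, KRT5 and GPNMB lie lower.

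The 12 largest rises of protein-coding genes are given here, among genes of at least 5 CPM in either group whose libraries did not overlap. IGF2, an insulin-like growth factor (chromosome 11, 2129112 to 2149603, hg38, as are all positions below), was at 10.9, 9.73 and 13.1 CPM in the TGF-β1 libraries and had no count in any dimerizer library, 964 counts against 0, which is at least 328-fold higher with a floor of 3 counts over the group. POSTN (periostin), a matricellular protein that binds integrins, stood at 2706, 2828 and 2684 CPM, against 1.32, 1.79 and 1.93 CPM, and rose by 10.64 ± 0.34. FN1 (fibronectin; chromosome 2, 215360440 to 215436172) had 15719, 14489 and 15627 CPM against 52.7, 38.9 and 56.0 CPM, a rise of 8.28 ± 0.43. FBLN5 (fibulin 5), an organiser of elastic fibres, was at 697, 680.1 and 765 CPM and 3.76, 2.78 and 3.19 CPM and rose by 7.80 ± 0.18. Both CADM3, a cell adhesion molecule, and ACKR1, the Duffy chemokine receptor, rose, by 8.28 ± 0.36 and 9.01 ± 0.47. The pair lies head to tail on chromosome 1, where the annotated end of CADM3 (159203313) passes the start of ACKR1 (159203307), so that reads at the junction could belong to either. AMTN (amelotin), best known from enamel, rose by 7.42 ± 0.23, HAS2, the hyaluronan synthase, by 7.17 ± 0.34 and FAP, a fibroblast surface protease, by 7.11 ± 0.11, to 118, 110.5 and 130.2 CPM, against 0.897, 0.734 and 0.965 CPM. DGKI, a diacylglycerol kinase, rose by 7.12 ± 0.40. CGB8, a chorionic gonadotropin β gene with near-identical copies, rose by 7.86 ± 0.27. ALOX5AP, which activates 5-lipoxygenase, had 700 counts against 3, a ratio of 238 (95% counting interval 81.1 to 1160). In all but POSTN, FN1, FBLN5, CADM3 and FAP, the TGF-β1 libraries stayed under 100 CPM (largest adjusted p, 1.1e-09, edgeR quasi-likelihood test with Benjamini-Hochberg adjustment).

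Promoter windows from RefSeq (GRCh38.p14; 250 bases before to 50 after a gene's start) were at hand for 8 of these 12 genes and 7 of the 12 largest falls, 12 and 8 windows. They were searched on both strands for the AP-1 letters TGANTCA, the SMAD box CAGACA and the SMAD palindrome GTCTAGAC. The AP-1 letters were in 1 of 12 windows of rising genes (8.33%) and 2 of 8 of falling genes (25%), beside 7.71% of all 35116 windows, and the SMAD box in 3 (25%) and 0, beside 16.9%. No window of either set held the palindrome, which 0.202% of all windows hold. The 4 windows below belong to the strongest rise with AP-1 letters, to AMTN with 3 SMAD boxes, and to the pair of falling genes with AP-1 letters; capitals mark the matches, and a match is a stretch of letters, not a bound site.
POSTN (chr13:37598719-37599018, minus strand): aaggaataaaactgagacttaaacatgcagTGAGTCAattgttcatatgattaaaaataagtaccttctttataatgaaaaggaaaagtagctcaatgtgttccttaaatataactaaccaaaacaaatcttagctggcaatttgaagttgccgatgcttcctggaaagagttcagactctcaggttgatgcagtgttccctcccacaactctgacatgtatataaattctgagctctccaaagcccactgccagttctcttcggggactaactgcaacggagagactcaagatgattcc
AMTN (chr4:70518319-70518618, plus strand): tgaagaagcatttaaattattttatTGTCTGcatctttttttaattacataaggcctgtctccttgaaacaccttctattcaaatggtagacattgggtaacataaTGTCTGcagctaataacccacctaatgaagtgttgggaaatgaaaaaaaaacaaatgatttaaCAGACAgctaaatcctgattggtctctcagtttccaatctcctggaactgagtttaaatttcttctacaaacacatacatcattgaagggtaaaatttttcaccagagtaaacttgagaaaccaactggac
BBOX1 (chr11:27040565-27040864, plus strand): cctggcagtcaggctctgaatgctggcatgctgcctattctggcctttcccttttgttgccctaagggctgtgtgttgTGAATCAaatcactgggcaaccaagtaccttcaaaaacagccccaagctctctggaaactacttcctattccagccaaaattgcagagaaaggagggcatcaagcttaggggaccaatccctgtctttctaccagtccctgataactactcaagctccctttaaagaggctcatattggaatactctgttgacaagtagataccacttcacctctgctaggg
GPNMB (chr7:23246525-23246824, plus strand): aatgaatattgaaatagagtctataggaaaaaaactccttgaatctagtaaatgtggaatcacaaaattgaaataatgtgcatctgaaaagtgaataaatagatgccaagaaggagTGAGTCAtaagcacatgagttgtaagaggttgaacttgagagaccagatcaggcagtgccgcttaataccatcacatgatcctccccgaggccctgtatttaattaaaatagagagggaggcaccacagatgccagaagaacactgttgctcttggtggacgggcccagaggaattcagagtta

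Most matrix genes rose. Of 30 tested matrix and matricellular genes 22 rose and 2 fell (23 and 1 of 27 on log2(TPM + 1)), with a median of 1.70, and their summed level was 37990.4, 36415 and 37297 CPM in the TGF-β1 libraries, against 5611, 4772 and 5369 CPM in the dimerizer libraries. TGFBI, the TGF-β-induced matrix protein, was abundant in both groups, at 15012, 14788 and 14411 CPM and 4646, 3887 and 4384 CPM, and rose by 1.78 ± 0.06. Per unit of length it showed the largest gain of any gene, to 9507 TPM, against 2040.3 TPM. The collagen lysyl hydroxylase PLOD2 rose by 2.07 ± 0.04. TGM2, CTGF, TNC and LOX were chosen after their values were seen. TGM2, the transglutaminase that crosslinks fibronectin, stood at 1305, 1116 and 1236 CPM, against 9.31, 8.91 and 11.8 CPM, a rise of 6.92 ± 0.19. CTGF, a CCN protein, rose by 6.28 ± 0.24, to 29.3, 35.5 and 36.8 CPM, against 0.598, 0.160 and 0.579 CPM. TNC (tenascin C) rose by 4.50 ± 0.16 and LOX, the lysyl oxidase, by 3.25 ± 0.12. SPARC, a collagen-binding protein, rose by 3.69 ± 0.10, against 1.47 ± 0.11 in WT cells and with a genotype difference of 2.22 ± 0.16. FBN1 (fibrillin 1) behaved alike, at 2.49 ± 0.09 and 1.14 ± 0.10, a difference of 1.36 ± 0.14. P4HA3, a prolyl hydroxylase, rose by 3.81 ± 0.25 in JNKKO cells and 6.70 ± 0.23 in WT cells, a difference of -2.89 ± 0.49. The lysyl oxidase relative LOXL1 fell by 0.83 ± 0.20 (largest adjusted p of the called genes, 0.0008, edgeR quasi-likelihood test with Benjamini-Hochberg adjustment).

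Collagens changed in both directions, with 11 of 20 higher and 6 lower (13 and 4 of 18 on log2(TPM + 1)). The basement membrane chains COL4A1 and COL4A2 lie head to head on chromosome 13, with spans that overlap at their starts (110148963 to 110307233 and 110305812 to 110513209). COL4A1 was at 353, 318 and 380.2 CPM with TGF-β1, against 24.003, 24.2 and 26.2 CPM with dimerizer, and COL4A2 at 582, 519 and 605 CPM, against 36.3, 33.9 and 42.0 CPM, so the pair rose by the near-equal 3.82 ± 0.08 and 3.92 ± 0.08. The X-linked chains of the same collagen did not follow: COL4A6 fell, at -0.50 ± 0.04, and COL4A5 was at -0.27 ± 0.03, which passed on counts but was -0.02 and did not pass on log2(TPM + 1). COL6A3, a chain of microfibrillar collagen VI, rose most of the list, by 5.03 ± 0.15. COL12A1, which sits on fibril surfaces, was at 32.5, 35.7 and 38.7 CPM, against 3.25, 4.50 and 3.73 CPM, and rose by 3.20 ± 0.13. COL1A1, the fibrillar collagen I chain, rose by 2.35 ± 0.05 and COL7A1, the anchoring fibril collagen, by 1.25 ± 0.05. COL17A1, the hemidesmosome collagen, fell by 0.39 ± 0.04 and COL16A1 by 1.54 ± 0.13. Called genes had edgeR adjusted p-values up to 1.29e-07.

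Of 25 laminin, hemidesmosome and integrin genes 19 rose and 4 fell. The summed level of the list was 43773, 41329 and 41199.7 CPM in the TGF-β1 libraries, against 20189.9, 20849 and 20944 CPM in the dimerizer libraries. LAMA3, an epithelial laminin chain, was at 6338, 5721 and 5668 CPM, against 2378, 2507 and 2536 CPM, a rise of 1.26 ± 0.05. ITGB6, the β6 chain of an integrin that activates latent TGF-β, stood at 608, 588 and 612 CPM and 68.3, 73.6 and 72.6 CPM and rose by 3.07 ± 0.06, and its partner ITGAV rose by 1.37 ± 0.05. ITGB5, another partner of ITGAV, was at 379, 356 and 388 CPM, against 136, 144 and 148 CPM, a rise of 1.39 ± 0.05. ITGA6, an integrin chain of hemidesmosomes, was at -0.25 ± 0.04 on counts but 0.01 on log2(TPM + 1). DST, the plakin that ties keratin to hemidesmosomes, fell by 1.71 ± 0.08 (largest adjusted p of these genes, 2.96e-06, edgeR quasi-likelihood test with Benjamini-Hochberg adjustment).

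Of 32 proteases, inhibitors and plasminogen genes 26 rose and 2, PLAT and PAPPA2, fell. PAPPA2, a protease of IGF-binding proteins, was at 3.05, 2.28 and 4.32 CPM with TGF-β1, against 4.40, 13.3 and 6.08 CPM with dimerizer, a fall of 1.32 ± 0.34 that did not pass in a fit of the 6 JNKKO libraries alone (-1.34). MMP2, the gelatinase of mesenchymal cells, was at 43.6, 42.0 and 38.6 CPM in the TGF-β1 libraries, against 0.513, 0.383 and 0.869 CPM in the dimerizer libraries, a rise of 6.11 ± 0.13. MMP19 rose by 2.78 ± 0.10 and MMP14, the membrane-bound collagenase that activates MMP2, by 1.03 ± 0.04. Chosen after their values were seen, MMP13, ADAM19, MMP9 and PLAU also stood out. MMP13, a collagenase, had no count in any dimerizer library and was at 0.630, 0.570 and 1.01 CPM in the TGF-β1 libraries, 63 counts against 0, which is at least 21.4-fold higher with the same floor. ADAM19, a membrane metalloprotease, stood at 168, 155 and 156 CPM, against 2.31, 1.66 and 2.00 CPM, and rose by 6.35 ± 0.17. MMP9, the other gelatinase, rose by 4.44 ± 0.35 in JNKKO cells and was at 2.50 ± 0.48 in WT cells, and the difference of 1.94 ± 0.72 passed its test. PLAU (urokinase) was at 649, 619 and 623 CPM, against 140.2, 134 and 144 CPM, a rise of 2.18 ± 0.08. PLAT (tissue plasminogen activator) fell by 0.87 ± 0.10. TIMP2, an inhibitor of MMPs, rose by 2.53 ± 0.05. The secreted serine protease HTRA1 reached 1909, 1885 and 1905 CPM, against 676, 584 and 645 CPM (largest adjusted p of these genes, 0.00325, edgeR quasi-likelihood test with Benjamini-Hochberg adjustment).

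Contractile genes mostly rose, 20 of 24 against 2 that fell (20 and 1 of 22 on log2(TPM + 1)). TAGLN (SM22), an actin-binding protein of smooth muscle, was at 24.6, 22.8 and 25.5 CPM with TGF-β1, against 1.24, 1.02 and 1.74 CPM with dimerizer, and rose by 4.18 ± 0.15. The tropomyosins TPM1 and TPM4 rose by 1.46 ± 0.05 and 1.38 ± 0.05, and the caldesmon gene CALD1 by 1.01 ± 0.04. ACTA2, the smooth muscle actin of myofibroblasts, stayed low, at 21.3, 19.3 and 18.7 CPM and 13.6, 13.8 and 15.8 CPM, with a rise of 0.45 ± 0.07. CNN3, an acidic calponin, fell by 1.79 ± 0.07. Of 19 YAP and TAZ targets and TEAD factors 11 rose and 7 fell (12 and 3 on log2(TPM + 1)); the clotting initiator F3 rose by 1.80 ± 0.09 and the receptor kinase AXL by 0.96 ± 0.04, while TEAD4 fell by 1.04 ± 0.09. Adjusted p-values of the called genes reached 3.31e-06 at most (edgeR with Benjamini-Hochberg adjustment).

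Markers used for fibroblasts mostly rose, 4 of the 5 that were tested, with none lower. DCN (decorin), a matrix proteoglycan, was at 62.2, 61.2 and 75.8 CPM in the TGF-β1 libraries, against 19.1, 17.1 and 16.9 CPM in the dimerizer libraries, a rise of 1.91 ± 0.13. DPT (dermatopontin) rose by 5.24 ± 0.33 in JNKKO cells and was at 0.35 ± 0.91 in WT cells without passing there (5 counts with TGF-β1 and 4 with dimerizer), a tested difference of 4.89 ± 1.25 (3.63 and not passing without WT dimerizer replicate 1). S100A4 (FSP1) rose by 1.13 ± 0.08. The receptor PDGFRB was at 0.946, 0.906 and 1.15 CPM and 0.854, 0.926 and 1.06 CPM, a difference of 0.07 ± 0.28 that did not pass. LUM reached at most 0.395 CPM, and PDGFRA had 0.0700 CPM or less. Of 8 tested leukocyte and endothelial genes 1 rose and 4 fell, among them PECAM1 at -2.00 ± 0.13 and TEK at -1.68 ± 0.14, and PTPRC (CD45) was at or below 0.511 CPM in each library (largest adjusted p of the called genes, 9.13e-09, edgeR quasi-likelihood test with Benjamini-Hochberg adjustment).

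Keratins changed in both directions, with 5 of 18 higher and 8 lower, and with 7 higher but 5 lower of 15 on log2(TPM + 1). KRT15, a keratin of resting basal cells (chromosome 17, 41513743 to 41522529), was at 246, 216 and 182 CPM in the TGF-β1 libraries, against 3525, 3415 and 3458 CPM in the dimerizer libraries, and fell by 4.01 ± 0.13. KRT5, the main basal keratin, fell by 1.14 ± 0.07. Its pairing partner KRT14 rose instead, to 357, 350.4 and 355 CPM, against 171, 160.1 and 159 CPM, at 1.12 ± 0.08; in WT cells it was at -0.94 ± 0.08, and the genotypes differed by 2.06 ± 0.11. KRT8, a simple-epithelium keratin, rose by 1.19 ± 0.08, and KRT7 rose by 1.68 ± 0.09. KRT81, a hair keratin with near-identical neighbours, rose by 3.57 ± 0.19, to 1867, 1743 and 1894 CPM, against 143, 167 and 152 CPM. KRT10, a keratin of suprabasal cells, fell by 1.46 ± 0.17, opposite to the 0.69 ± 0.16 of WT cells, a difference of -2.15 ± 0.23. KRT6A was at -0.03 ± 0.03 and did not pass (0.22 on log2(TPM + 1)). In edgeR the called genes had adjusted p-values of 4.98e-06 or less.

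Squamous differentiation genes showed 6 of 25 higher and 11 lower, and 3 higher and 11 lower of 26 without dimerizer replicate 2. Their median was -0.40, against -3.24 in WT cells, where 23 fell. A positive difference between genotypes passed the test at 18 of the 25. Over all 16911 genes tested, 5380 fell in WT cells and 2391 had a positive difference that passed. S100A9, a calprotectin subunit, was at 91.8, 88.2 and 70.8 CPM, against 370.1, 382 and 386 CPM, and fell by 2.18 ± 0.12, less than the -4.57 ± 0.15 of WT cells (difference 2.39 ± 0.19). S100A8, the other subunit, fell by 1.48 ± 0.12, and TGM1, the transglutaminase of the cornified envelope, by 1.71 ± 0.09. IVL (involucrin) rose by 2.97 ± 0.39, to 18.6, 15.998 and 17.3 CPM, against 3.03, 1.69 and 2.03 CPM. CASP14, a caspase of cornification outside the list, had the most positive difference between genotypes among called genes of at least 5 CPM in some group: it stood at 91.6, 86.7 and 73.2 CPM, against 4.83, 3.38 and 5.57 CPM, and rose by 4.20 ± 0.39 where WT cells were at -1.19 ± 0.52 without passing, a difference of 5.39 ± 0.65. Among 18 tested lineage factors and basal and luminal markers 8 rose and 4 fell, with a median of 0.12. TP63, the basal transcription factor, fell by 0.86 ± 0.05, the surface mucin gene MUC1 by 0.84 ± 0.06, and CD24 rose by 1.91 ± 0.19. GATA3, the luminal factor, was at -0.14 ± 0.09 without passing (largest adjusted p of the called genes, 1.93e-05, edgeR quasi-likelihood test with Benjamini-Hochberg adjustment).

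The 12 largest falls of protein-coding genes by the same rule were mixed in kind, with KRT15 given above. PLA2G4F, a cytosolic phospholipase A2 (chromosome 15, 42139034 to 42156636), was at 0.140, 0.101 and 0.252 CPM in the TGF-β1 libraries, against 19.5, 20.5 and 17.2 CPM in the dimerizer libraries, and fell by 6.84 ± 0.28. SLC27A2, which takes up and activates very long fatty acids, fell by 4.90 ± 0.23. CHI3L1, the chitinase-like glycoprotein YKL-40, had 2.00, 1.04 and 0.683 CPM against 36.2, 39.1 and 36.0 CPM and fell by 4.90 ± 0.17. BBOX1, an enzyme of carnitine synthesis, fell by 4.11 ± 0.23, the suprabasal keratin KRT1 by 4.09 ± 0.35 and the alcohol dehydrogenase ADH1B by 3.74 ± 0.25, to 4.38, 4.49 and 3.78 CPM, against 57.3, 56.8 and 54.9 CPM. SYN3 (synapsin III), whose span overlaps TIMP3 on the other strand, fell by 3.69 ± 0.18, while TIMP3, named for that overlap after its value was seen, rose by 0.42 ± 0.04. ALDH3B2, an aldehyde dehydrogenase, fell by 3.61 ± 0.20, PHACTR3, an actin and phosphatase regulator, fell by 3.52 ± 0.19 and CALML3, a calmodulin of epithelia, by 3.45 ± 0.17. GPNMB, a lysosomal glycoprotein, stood at 27.4, 27.3 and 26.1 CPM, against 351, 290.3 and 318 CPM, and fell by 3.57 ± 0.32. Groups that do not overlap were a condition of the rule, and 64.8% of all genes tested did not overlap (largest adjusted p of the genes given here, 3.44e-07, edgeR quasi-likelihood test with Benjamini-Hochberg adjustment).

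AP-1 subunits moved unequally, 8 of 17 higher and 5 lower (11 and 4 of 16 on log2(TPM + 1)). JUN, the gene of the JNK substrate c-Jun, was at 418, 390.1 and 381 CPM in the TGF-β1 libraries, against 98.4, 84.1 and 102.9 CPM in the dimerizer libraries, a rise of 2.06 ± 0.07 beside 1.99 ± 0.07 in WT cells. The difference between genotypes was 0.07 ± 0.09 and did not pass its test (adjusted p = 0.592), which does not show that they are alike. FOS fell, at 62.8, 85.6 and 62.6 CPM and 147, 152 and 133 CPM, by 1.03 ± 0.16, and FOSL2 by 0.76 ± 0.05, while FOSL1 was at 0.24 ± 0.07. MAF, a large leucine-zipper factor, rose by 2.54 ± 0.08. ATF3, a stress-induced member, fell by 1.85 ± 0.21, and JUNB was at 0.05 ± 0.09 without passing. Of 25 genes of the JNK cascade and its scaffolds and brakes 15 rose and 6 fell (17 and 3 of 24 on log2(TPM + 1)). DUSP10, a phosphatase of JNK and p38, stood at 71.3, 74.5 and 72.4 CPM, against 24.1, 22.4 and 22.8 CPM, and rose by 1.66 ± 0.05. GADD45B, which couples TGF-β to MAP3K4, rose by 1.58 ± 0.10, and MAP3K4 itself by 0.78 ± 0.05. MAP3K5 (ASK1) fell by 0.76 ± 0.06 (largest adjusted p of the called genes, 0.00322, edgeR quasi-likelihood test with Benjamini-Hochberg adjustment).

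The HER2 kinase is known to signal through ERK. Of 20 ERK feedback and ERK-induced genes 8 rose and 6 fell (10 and 2 of 19 on log2(TPM + 1)). DUSP4, a nuclear ERK phosphatase, was at 443, 458 and 417 CPM with TGF-β1, against 278, 263 and 290.0 CPM with dimerizer, and rose by 0.67 ± 0.07, opposite to the -0.65 ± 0.08 of WT cells (difference 1.31 ± 0.11). DUSP6, the cytoplasmic ERK phosphatase, was at -0.21 ± 0.09 without passing. CCND1 (cyclin D1) rose by 1.28 ± 0.07 to 298, 297 and 319 CPM, against 130.4, 110.0 and 136 CPM, and MYC fell by 0.98 ± 0.04, to 269, 255 and 259 CPM, against 511, 518 and 512 CPM. Of 14 ERBB receptors, ligands and inhibitors 1 rose and 10 fell (2 and 7 of 12 on log2(TPM + 1)). HBEGF, a ligand of EGFR, had 1.75, 1.74 and 2.05 CPM against 15.5, 27.5 and 14.6 CPM and fell by 3.39 ± 0.25; the ligand EREG fell by 1.51 ± 0.16 and LRIG1, a brake on ERBB receptors, by 1.90 ± 0.07. AREG (amphiregulin) was the member that rose, by 0.32 ± 0.10, a call lost on leaving out any 1 of dimerizer replicate 1 and TGF-β1 replicate 2 (then 0.28 to 0.30). EGFR itself was at 661, 669 and 706 CPM and 633, 729 and 650.0 CPM, a difference of 0.02 ± 0.05 that did not pass (largest adjusted p of the called genes, 0.0179, edgeR quasi-likelihood test with Benjamini-Hochberg adjustment).

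Mitosis genes were mostly higher in JNKKO cells and lower in WT cells. In JNKKO cells 15 of 25 rose and 1, PTTG1 (securin), fell, by 0.34 ± 0.09 (10 and 1 without dimerizer replicate 2, and 22 and 0 on log2(TPM + 1)), with a median of 0.35. In WT cells 0 rose and 25 fell, with a median of -1.17. The difference between genotypes was positive and passed the test at 25 of the 25. Over all 16911 genes tested, 5643 rose and 5380 fell in WT cells, and 2391 had a positive difference that passed. CDK1, the mitotic kinase, was at 20.7, 22.3 and 24.2 CPM in the TGF-β1 libraries, against 18.1, 13.9 and 16.5 CPM in the dimerizer libraries, a rise of 0.48 ± 0.10, where WT cells were at -1.21 ± 0.10. BIRC5 (survivin) rose by 0.70 ± 0.14 and MYBL2 (B-Myb), a transcription factor of mitotic genes, by 0.87 ± 0.14. MKI67, the Ki-67 gene, stood at 53.4, 48.1 and 48.9 CPM and 41.9, 36.7 and 41.3 CPM; at 0.33 ± 0.15 it did not pass (adjusted p = 0.0705). Dimerizer replicate 2 had the lowest summed level of the list, 422.8 CPM beside 480.7 and 502.5 CPM in its group. DNA replication genes had 7 of 26 higher and 7 lower on counts, near the 30.5% and 30.3% of all genes tested. The split was 15 and 3 on log2(TPM + 1), and 4 and 7 without dimerizer replicate 2. CCNE1 (cyclin E1) rose by 1.15 ± 0.13 and the licensing factor CDT1 fell by 1.15 ± 0.11, while PCNA was at 0.01 ± 0.05 without passing. The CDK inhibitors CDKN1A (p21) and CDKN1C (p57) rose by 0.77 ± 0.04 and 1.06 ± 0.12, and CDKN1B (p27) fell by 0.34 ± 0.05 (-0.09 and not passing on log2(TPM + 1)). Called genes had edgeR adjusted p-values up to 0.00275.

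Of 15 BCL2 family genes, which decide survival of cells in the acinar lumen, 5 rose and 5 fell (6 and 2 of 14 on log2(TPM + 1)). BMF, a BH3-only killer linked to loss of matrix contact, was at 15.6, 16.6 and 15.9 CPM in the TGF-β1 libraries, against 2.73, 1.56 and 3.03 CPM in the dimerizer libraries, and rose by 2.73 ± 0.16. BCL2L11 (BIM), the BH3-only gene best known from mammary lumen clearance, fell to 17.1, 18.3 and 17.8 CPM, against 39.7, 37.6 and 36.0 CPM, by 1.09 ± 0.07. HRK fell by 1.34 ± 0.13 in JNKKO cells and was at 1.46 ± 0.10 in WT cells, a difference of -2.80 ± 0.16. BAX rose by 0.60 ± 0.07 and PMAIP1 (NOXA) fell by 0.48 ± 0.14, a call lost on log2(TPM + 1) (-0.18) and on leaving out dimerizer replicate 2 (then -0.29) (largest adjusted p, 0.00484, edgeR quasi-likelihood test with Benjamini-Hochberg adjustment).

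Respiratory chain genes of both genomes were mostly lower on counts. All 13 mitochondrially encoded protein genes fell on counts, and 12 fell and 1 rose on log2(TPM + 1). MT-CO1, a cytochrome oxidase subunit, was at 14657, 15679 and 14765 CPM in the TGF-β1 libraries, against 25096, 25304 and 24796 CPM in the dimerizer libraries, a fall of 0.74 ± 0.04. MT-ND1, a complex I subunit, fell most, by 1.38 ± 0.05. The genotypes differed at all 13, with 13 negative differences that passed and a WT median of 0.18. Over all 16911 genes tested, 3179 had a negative difference that passed. Of 29 nuclear respiratory genes none rose and 23 fell, but 7 rose and 16 fell on log2(TPM + 1); with mitochondrially encoded genes left out of library sizes and tests the count was again none and 23, and 10260 genes passed in all. CYC1, cytochrome c1, fell by 0.79 ± 0.04, to 148, 153 and 150.3 CPM, against 261, 254 and 268 CPM, and ATP5B, an ATP synthase subunit, by 0.60 ± 0.03. Glycolysis and hypoxia genes were mixed, with 14 of 28 higher and 8 lower (17 and 3 on log2(TPM + 1)). PFKFB3, which makes an activator of glycolysis, rose by 0.84 ± 0.05, while the hexokinase HK2 fell by 0.89 ± 0.07. Of 25 sterol and fatty acid synthesis genes 3 rose and 17 fell (7 and 9 on log2(TPM + 1)), among them FASN, the fatty acid synthase, at 505, 472 and 515 CPM and 876, 778 and 896 CPM, a fall of 0.77 ± 0.05. Adjusted p-values of the called genes reached 1.47e-08 at most (edgeR with Benjamini-Hochberg adjustment).

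Of 21 ER chaperone and unfolded protein response genes 17 rose and 3 fell (19 and 0 on log2(TPM + 1)). CALR, the chaperone calreticulin, was at 599, 603 and 595 CPM in the TGF-β1 libraries, against 369.9, 349 and 369 CPM in the dimerizer libraries, a rise of 0.72 ± 0.04, and the secreted ER protein MANF rose by 0.81 ± 0.06. Of 19 ATF4 response genes 2 rose and 15 fell (3 and 9 on log2(TPM + 1)). SLC7A5, an amino acid transporter, stood at 284, 271 and 312 CPM, against 681, 887 and 665 CPM, and fell by 1.37 ± 0.11. Its partner chain SLC3A2 fell by 0.80 ± 0.07 and the serine synthesis gene PSAT1 by 1.21 ± 0.11. Of 24 lysosome genes 18 rose and 5 fell (17 and 2 of 23 on log2(TPM + 1)), with the protease gene CTSB at 1306, 1321 and 1313 CPM and 698, 631 and 709 CPM, a rise of 0.95 ± 0.04 (largest adjusted p, 2.97e-07, edgeR quasi-likelihood test with Benjamini-Hochberg adjustment).

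Interferon-stimulated genes parted within the list, 11 of 24 higher and 7 lower. The antiviral synthetase OAS1 was at 5.01, 5.13 and 5.72 CPM with TGF-β1, against 27.0, 25.9 and 26.5 CPM with dimerizer, and fell by 2.32 ± 0.09; its relatives OAS3 and OAS2 fell by 1.79 ± 0.06 and 1.44 ± 0.16. IFI44L, also interferon-induced, rose to 24.1, 22.2 and 29.8 CPM, against 5.25, 4.50 and 4.54 CPM, by 2.42 ± 0.12, and IFI44 rose by 2.35 ± 0.13. STAT2, which carries the interferon signal, rose by 0.80 ± 0.05. Of 15 genes of MHC class I presentation 4 rose and 11 fell (5 and 7 on log2(TPM + 1)); the peptide transporter TAP1 fell by 1.08 ± 0.06 and the immunoproteasome subunit PSMB9 by 1.63 ± 0.19. In edgeR the called genes had adjusted p-values of 1.65e-08 or less.

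Of 27 chemokine and interleukin genes 8 rose and 11 fell (8 and 5 of 22 on log2(TPM + 1)). CXCL8 (interleukin 8), a neutrophil attractant, stood at 19.999, 21.7 and 29.8 CPM in the TGF-β1 libraries, against 2.48, 3.54 and 2.83 CPM in the dimerizer libraries, and rose by 3.00 ± 0.26, where WT cells were at 0.64 ± 0.33 without passing, a tested difference of 2.36 ± 0.43. CXCL1, of the same receptor, had 34.04, 36.3 and 39.1 CPM against 3.89, 5.30 and 4.44 CPM and rose by 2.99 ± 0.13, a genotype difference of 2.26 ± 0.20. CXCL3, also of the family, rose by 1.72 ± 0.23 where WT cells were at -0.50 ± 0.29 without passing, a difference of 2.21 ± 0.37. IL11, a cytokine known as a TGF-β target, rose by 1.41 ± 0.16, less than the 2.91 ± 0.17 of WT cells (difference -1.51 ± 0.24). The interleukin 6 receptor gene IL6R fell by 1.14 ± 0.07, CXCL16 by 1.43 ± 0.09 and LIF by 1.53 ± 0.16 (largest adjusted p of these genes, 2e-07, edgeR quasi-likelihood test with Benjamini-Hochberg adjustment).

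Of 28 Wnt ligands, receptors and antagonists 11 rose and 14 fell (11 and 10 of 25 on log2(TPM + 1)). WNT5A, a non-canonical ligand, was at 119, 108 and 113 CPM, against 8.88, 10.5 and 8.82 CPM, and rose by 3.58 ± 0.13, more than the 1.28 ± 0.13 of WT cells (difference 2.30 ± 0.19). WNT5B, its close relative, had 138 counts in the TGF-β1 libraries and 2 in the dimerizer libraries, a ratio of 70.4 (95% counting interval 19.1 to 587). Its WT libraries had 4 counts with TGF-β1 and 5 with dimerizer, and no difference between genotypes is read from so few. DKK1, a Wnt antagonist, rose by 4.09 ± 0.13 to 25.2, 31.5 and 27.5 CPM, against 1.84, 1.44 and 1.71 CPM. WNT10A fell by 2.93 ± 0.31 and the Wnt receptor FZD5 by 1.15 ± 0.12. In the Notch pathway 5 of 17 rose and 8 fell (5 and 5 of 15 on log2(TPM + 1)): NOTCH1 fell to 122, 118 and 117 CPM, against 322, 326 and 315 CPM, by 1.43 ± 0.07, and the ligand JAG2 by 1.07 ± 0.07, while LFNG, a sugar transferase acting on Notch, rose by 1.60 ± 0.11. Called genes had edgeR adjusted p-values up to 1.55e-08.

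Among 25 growth factor, IGF axis and angiogenic genes 16 rose and 8 fell (15 and 4 of 22 on log2(TPM + 1)). VEGFC, a growth factor of lymphatic vessels, was at 28.2, 28.9 and 28.5 CPM in the TGF-β1 libraries, against 3.46, 3.58 and 4.05 CPM in the dimerizer libraries, and rose by 2.94 ± 0.12. PDGFC rose by 2.39 ± 0.08 to 119, 124.5 and 117 CPM, against 24.6, 20.8 and 23.5 CPM, and PTHLH, the parathyroid hormone-like hormone, by 2.06 ± 0.17. Of the IGF-binding proteins, IGFBP3 rose by 3.74 ± 0.16 and IGFBP7 by 2.19 ± 0.12, while IGFBP2 fell by 3.04 ± 0.20 and IGFBP5 had 3 counts against 49, a ratio of 0.0624 (95% counting interval 0.0124 to 0.193). FGFR3, a receptor kinase of epithelia, stood at 11.6, 11.3 and 10.8 CPM, against 78.2, 80.4 and 77.3 CPM, and fell by 2.81 ± 0.06. In axon guidance 13 of 30 rose and 14 fell (12 and 9 of 25 on log2(TPM + 1)); NRP1, a co-receptor of semaphorins and VEGF, rose by 1.82 ± 0.09, SLIT3 had 267 counts against 3, a ratio of 90.8 (30.7 to 443), and EPHB6, an ephrin receptor, fell by 3.16 ± 0.16 (largest adjusted p of the called genes, 1.32e-05, edgeR quasi-likelihood test with Benjamini-Hochberg adjustment).

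**Figure D4:**
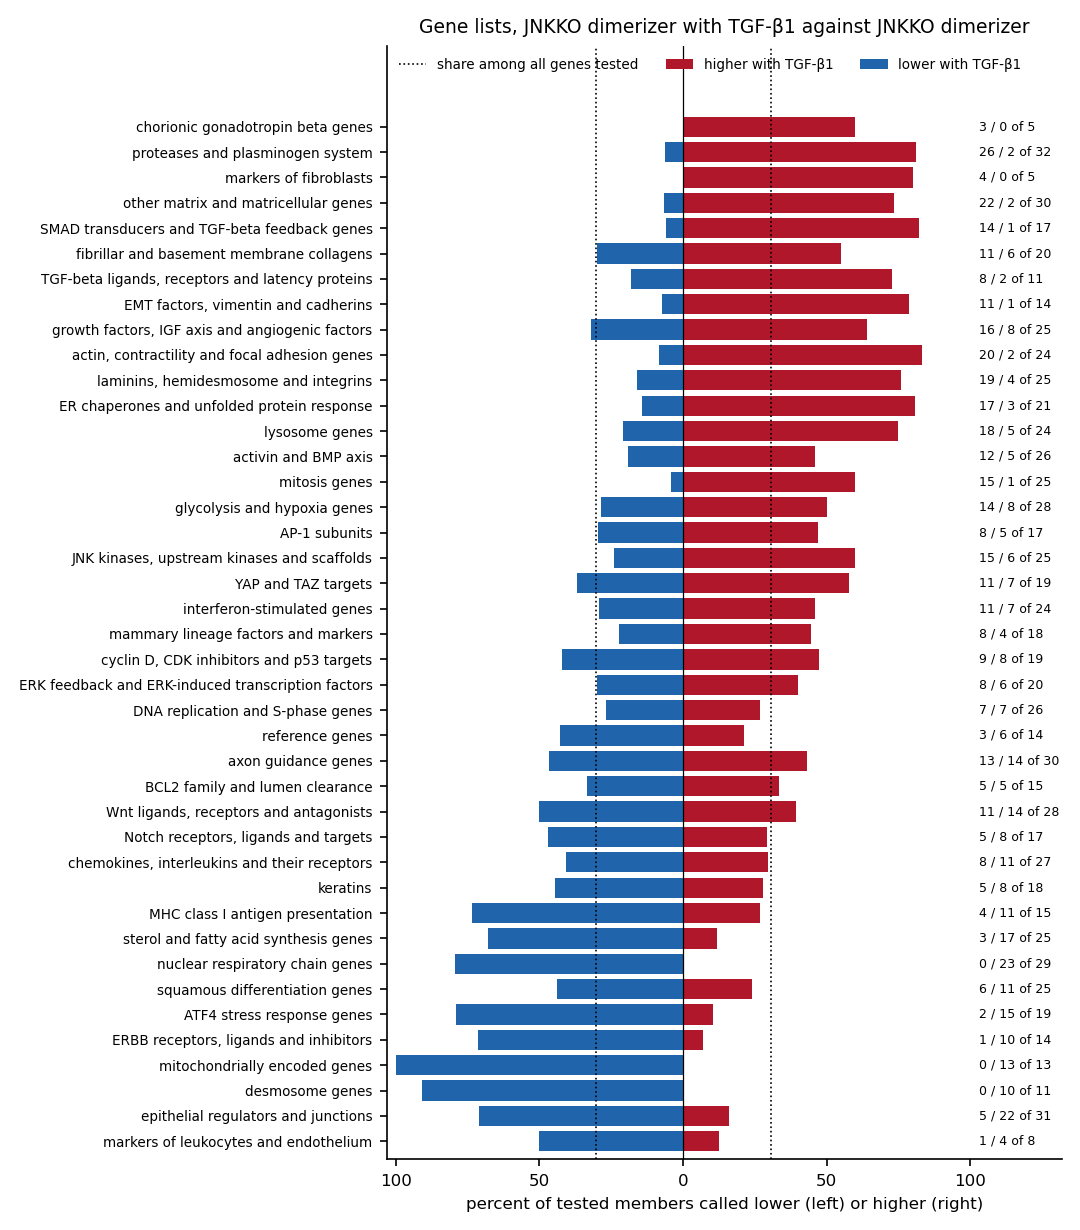
For each of 41 gene lists, bars give the percent of tested members that rose (red, right) or fell (blue, left) in JNKKO dimerizer with TGF-β1 against JNKKO dimerizer, with the counts at the right and the shares among all genes, 30.5% and 30.3%, as dotted lines; lists are ordered by their median. Matrix, protease and TGF-β pathway lists lie near the top, and desmosome, mitochondrially encoded and epithelial lists near the bottom.

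The same addition of TGF-β1 in WT cells, which uses other libraries, called 11023 genes (65.2%). The log2 differences of the genotypes had a Pearson r of 0.744 over the 16911 genes, a description only, since genes are not independent replicates. Of 8241 genes called in both genotypes 7693 (93.4%) went the same way and 548 went opposite ways. Of the 2413 genes that changed at least 2-fold in JNKKO cells, 1926 were called in WT cells in the same direction, 37 in the opposite direction and 450 were not called. The difference itself passed its test at 5570 genes (32.9%), 2391 with a more positive value in JNKKO cells and 3179 with a more negative one, a split that turned to 3157 and 1916 in limma on log2(TPM + 1). WT replicate 3 of dimerizer with TGF-β1 carries a JNK-knockout genotype tag against its title; without it 5067 differences passed. WT replicate 1 of the same group stood apart from the others by its chi-square per gene (9.5 and 12.1, against 3.39), and without it 5317 passed.

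Named by size among genes of at least 5 CPM in some group, the strongest differences between genotypes included enzymes and channels. GFPT2, the rate-limiting enzyme of hexosamine synthesis, was at 73.0, 70.0 and 73.8 CPM in JNKKO cells with TGF-β1, against 5.00, 6.00 and 4.05 CPM with dimerizer, a rise of 3.85 ± 0.17, while WT cells were at 0.30 ± 0.18 without passing (difference 3.55 ± 0.26). CAMK2B, a calmodulin kinase subunit, fell by 2.09 ± 0.19 in JNKKO cells and was at -6.52 ± 0.32 in WT cells, a difference of 4.43 ± 0.46. A2ML1, a protease inhibitor of cornified epithelium, was at -1.21 ± 0.41, against -6.20 ± 0.62 in WT cells (difference 4.99 ± 0.89), and did not pass in JNKKO cells on leaving out any 1 of dimerizer replicate 3, TGF-β1 replicate 2 and TGF-β1 replicate 3 (then -1.18 to -1.11). ALDH3B2 was at -8.55 ± 0.41 in WT cells (1 count with TGF-β1 and 547 with dimerizer), a fitted difference of 4.94 ± 0.74 that was 0.14 and did not pass on log2(TPM + 1), and SBSN, a secreted keratinocyte protein, at -0.92 ± 0.34 and -4.61 ± 0.51, a difference of 3.69 ± 0.68, with the JNKKO call lost on leaving out any 1 of dimerizer replicate 1, dimerizer replicate 3, TGF-β1 replicate 1, TGF-β1 replicate 2 and TGF-β1 replicate 3 (then -1 to -0.83). On the negative side KCNJ6, a potassium channel, rose by 5.26 ± 0.34; its fitted difference between genotypes, -3.39 ± 1.31, is no bound, since WT cells had 159 counts with TGF-β1 and 0 with dimerizer, and it did not pass in DESeq2 (-2.93) or on leaving out any 1 of 9 of the 12 libraries (then -3.45 to -3.05), all but JNKKO dimerizer replicate 3 and WT dimerizer with TGF-β1 replicates 1 and 3. AOX1 (aldehyde oxidase) rose by 1.78 ± 0.08, also less (difference -2.78 ± 0.17). INSC, an adaptor of spindle orientation, rose by 1.02 ± 0.19 (difference -2.60 ± 0.37). ALDH1A2, a retinoic acid enzyme, fell by 3.28 ± 0.29 (difference -2.81 ± 0.61). DGKI, named above, rose less in WT cells, by 3.77 ± 0.58 (57 counts with TGF-β1 and 4 with dimerizer), a difference of 3.35 ± 1.21 that did not pass on leaving out any 1 WT dimerizer library, JNKKO dimerizer replicate 2 or JNKKO dimerizer replicate 3 (then 2.74 to 3.56) (largest adjusted p of the called JNKKO values, 0.0339, edgeR quasi-likelihood test with Benjamini-Hochberg adjustment).

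**Figure D5:**
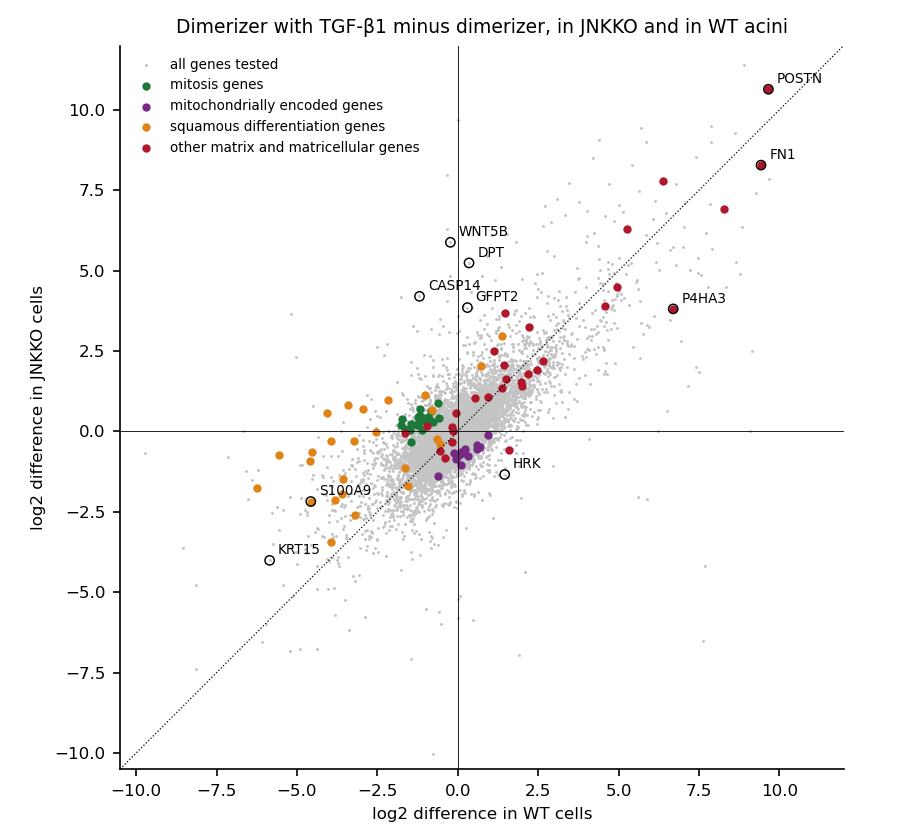
Log2 differences on adding TGF-β1 to dimerizer in JNKKO cells (y axis) are set against those in WT cells (x axis) for all genes tested (grey), with 4 gene lists in colour and 10 genes circled; the dotted line marks equal values. Mitosis genes lie left of 0 in WT cells and mostly just above 0 in JNKKO cells, all 13 mitochondrially encoded genes lie below 0 in JNKKO cells and near 0 in WT cells, and most matrix genes lie above 0 on both axes.

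By abundance per unit of length, 7 of the 8 largest gains in mean TPM were those of TGFBI, TMSB10, RN7SL1, FN1, RN7SL2, LGALS1 and MT2A. FN1 reached 2842 TPM, against 7.66 TPM. TMSB10, a thymosin that binds actin monomers, rose by 0.47 ± 0.08, LGALS1 (galectin 1) by 0.91 ± 0.11 and the metallothionein MT2A by 0.74 ± 0.09. RN7SL1 and RN7SL2, RNAs of the signal recognition particle, were at 0.15 ± 0.23 and -0.14 ± 0.23 in CPM and did not pass. The 8 largest losses were 7 mitochondrially encoded genes and EEF1A1, the translation elongation factor, which was at 13665 TPM in the TGF-β1 libraries, against 18229 TPM in the dimerizer libraries, a fall of 0.68 ± 0.03 in CPM (largest adjusted p of the called genes, 0.000161, edgeR quasi-likelihood test with Benjamini-Hochberg adjustment).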

How the data were processed

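The 6 JNKKO libraries compared here belong to 18 paired-end RNA-seq libraries in 6 groups of 3, taken from column names and titles. Adapters were removed with cutadapt and reads quantified on hg38 with RSEM, per the submitters' processing notes; versions, annotation and strand setting were not given in these sources. The deposited tables hold expected counts and TPM per gene, the authors' values before any further scaling. Of 42141 gene names 127 had been altered and were restored. In 76 of them the letters JNKKO stood in place of E3. The other 51 held a space, as after a currency conversion, and were renamed from their transcripts. In all, 42125 names (99.96%) matched GENCODE 29, the source of positions and gene types. Expected counts, of which a median of 9.35% per library were not whole, were rounded.

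Counts of all 18 libraries were fitted together with edgeR 4.0.16 (R 4.3.3; TMM, filterByExpr, robust quasi-likelihood test), with Benjamini-Hochberg adjusted p under 0.05 as the call; the expected-count totals per library bear on low genes most. Alternatives were DESeq2 1.42.0, its size factors, limma 3.58.1 on log2(TPM + 1) and log2(TPM + 0.1), other filters, and libraries left out. Only the main edgeR fit was first run on simulated counts, and only its JNKKO comparison was checked there. Named genes were the 12 largest rises and falls of coding genes at 5 CPM or more with separate groups, 4 each of long non-coding RNAs, 8 each by TPM, all members of 7 core lists, up to 6 called members each way of other lists, 10 fixed genes, and 8 interactions each way. Members that did not pass are given as values, and genes chosen after their values were seen are marked. The comparison, the lists and the rule were chosen with earlier results of these data known. A few genes that the rule names are not reported here. Promoter windows come from RefSeq. Counting intervals and floors cover counting error only.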

Additional observations from a re-analysis of the deposited data

Results flagged for a closer look

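These results are listed because a test of the difference between genotypes passed (adjusted p under 0.05, edgeR quasi-likelihood test with Benjamini-Hochberg adjustment), and because the gene was either 1 of the 8 largest in its direction or moved opposite ways on adding TGF-β1 to JNKKO and to WT cells. Values are log2, JNKKO minus WT. With 3 libraries a group, no search for a single far-off sample was made.

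Among genes of at least 5 CPM in some group, the largest positive differences were 5.39 at CASP14, 4.99 at A2ML1, 4.94 at ALDH3B2, 4.89 at DPT, 4.43 at CAMK2B, 3.69 at SBSN, 3.55 at GFPT2 and 3.35 at DGKI. Large negative differences were -3.39 at KCNJ6, -2.89 at P4HA3, -2.81 at ALDH1A2, -2.80 at HRK, -2.78 at AOX1 and -2.60 at INSC. The ALDH3B2 difference was 0.14 and did not pass on log2(TPM + 1), and that of DPT did not pass without WT dimerizer replicate 1. At DGKI the difference did not pass on leaving out any 1 of 5 libraries. At KCNJ6 it did not pass on leaving out any 1 of 9 libraries, or in DESeq2.

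Genes that rose in JNKKO cells and fell in WT cells included mitosis genes, with differences of 1.87 at BIRC5, 1.69 at CDK1 and 1.47 at MYBL2. KRT14 differed by 2.06, DUSP4 by 1.31, ZEB1 by 1.25, AREG by 0.77 and ACTA2 by 0.65. Genes that fell on counts in JNKKO cells and rose in WT cells differed by -2.15 at KRT10, -0.81 at ITGA6, -0.66 at COL17A1, -0.61 at ERBB2, -0.56 at SMAD3 and -0.30 at MAPK8. On log2(TPM + 1) the JNKKO values of ITGA6, ERBB2 and MAPK8 were 0.01, 0.10 and 0.10, and the fall of SMAD3 did not pass. The JNKKO calls of ERBB2, MAPK8 and AREG were each lost on leaving out any 1 of the libraries named above for them. The mitochondrial share was lower in the JNKKO libraries with TGF-β1 than elsewhere. With mitochondrially encoded genes left out, 5523 genotype differences passed, 2655 positive and 2868 negative. The main fit had 5570, 2391 positive and 3179 negative. Beyond that fit the part of the share in these differences was not tested.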

How the results depend on the processing

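The count of 10271 called genes was 9722 with DESeq2, 10280 with DESeq2 size factors, 10344 with no filter, 10260 without mitochondrially encoded genes, 9925 on the 6 JNKKO libraries alone, and 9629 to 9834 without 1 library. On the deposited TPM fewer genes were lower, 2418 on log2(TPM + 1) and 2441 on log2(TPM + 0.1), beside 5117 on counts, and 1189 genes on log2(TPM + 1) and 1898 on log2(TPM + 0.1) changed at least 2-fold, beside 2413. All genes' median moves to 0.21 and 0.24 on these scales. The replicate block gave 10260 calls. Deviations of same-numbered libraries had correlations of 0.0445, -0.0216 and -0.0634, and those of differently numbered libraries ran from -0.0727 to 0.0908. With 3 libraries a group this cannot decide whether the numbers pair the samples, which the labels do not say. The WT count was 10420 to 10746 without 1 library, and that of genotype differences 4909 to 5446. Of 253 genes given in the text 226 kept their call in each alternative run. Direction reversed on log2(TPM + 1) and log2(TPM + 0.1) at KLF4 (0.21 and 0.23), KRT6A (0.22 and 0.22), MAPK8 (0.10 and 0.12), VIM (0.24 and 0.24), ERBB2 (0.10 and 0.11) and ITGA6 (0.01 and 0.01). Of 82 list counts 47 stayed within 1.5 times. Depth limits genes of a few counts, such as WNT5B and IGFBP5, to wide intervals; beyond the median shift, the cause was not tested.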

Other observations

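Long non-coding RNAs moved in both directions. MIR205HG, the host transcript of an epithelial microRNA, was at 134, 135 and 131 CPM in the TGF-β1 libraries, against 426, 381 and 423 CPM in the dimerizer libraries, and fell by 1.62 ± 0.05. MIR17HG, host of a growth-linked microRNA cluster, fell by 1.23 ± 0.16, LINC01127 by 3.64 ± 0.17 and ADIRF-AS1 by 1.73 ± 0.12; the last lies antisense to another gene, and whether the counting used strand is not given in the sources used here. HOTAIR, a transcript of the HOXC cluster, was at 7.46, 7.08 and 7.26 CPM, against 2.73, 2.46 and 2.70 CPM, and rose by 1.47 ± 0.14, LINC00313 rose by 1.90 ± 0.16 and C21orf125 by 1.45 ± 0.29. FAM225B rose by 1.47 ± 0.54, a call lost on leaving out any 1 of dimerizer replicate 1, dimerizer replicate 3 and TGF-β1 replicate 1 (then 1.10 to 1.23). All 8 had edgeR adjusted p-values of 0.0303 or less.

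Of 14 genes often used as references in expression assays, 3 rose and 6 fell on counts, and 8 rose and 4 fell on log2(TPM + 1). RPLP0, a ribosomal protein gene, was at 2237, 2237 and 2166.4 CPM in the TGF-β1 libraries, against 3476, 3451 and 3523 CPM in the dimerizer libraries, and fell by 0.65 ± 0.03. ACTB, the cytoplasmic actin gene, rose by 0.65 ± 0.05, to 3408, 3312 and 3332 CPM, against 2176, 2039 and 2198 CPM. Of the chorionic gonadotropin β genes, which share near-identical sequence, 3 of 5 rose and none fell; CGB5 rose by 2.76 ± 0.26 and CGB7 by 0.86 ± 0.09 (largest adjusted p of these genes, 1.25e-09, edgeR quasi-likelihood test with Benjamini-Hochberg adjustment).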
